A study of Homo sapiens with 8 samples.

Results

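Levels of 9 genes encoding transcription factors of the mesenchymal state and of the epithelial-to-mesenchymal transition (EMT) were followed in human neuroblastoma (NB) cells: SNAI1, SNAI2, TWIST1, TWIST2, ZEB1, ZEB2, PRRX1, SIX4 and GLIS3. The genes form a named set, chosen with earlier results of these data known. Each was found by its Ensembl identifier among the 60676 gene rows of the count matrix. Reads were detected for 8 of the 9 genes, and those 8 passed the filter on low counts that left 16680 genes for testing; TWIST2 had no read in any library. The cells were IGR-N91, a line established from a stage 4 NB, so that every group derives from 1 cell line, and they were grown as aggregates in hanging drops. Control aggregates received medium that had held no tissue. Treated aggregates received medium conditioned by sympathetic ganglia of chick embryos at embryonic day 8 (E8-cSGcm), by dorsal root ganglia of chick embryos at the same stage (E8-cDRGcm) or by sympathetic ganglia of E15.5 mouse embryos (E15.5-mSGcm). There were 2 libraries per group and 8 in all, and exposure lasted 20 h by the sample labels and 24 h by the series description. No label ties the libraries of a group to separate cultures, so that p-values measure only the spread between these samples, which may be technical.

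EMT transcription factors are best known for converting epithelial cells into motile mesenchymal cells. SNAI1, SNAI2, ZEB1 and ZEB2 are zinc finger repressors that bind E-box DNA, the CACCTG sequence among them, in the promoters of epithelial genes such as CDH1, whereas TWIST1 and TWIST2 are basic helix-loop-helix proteins. Sympathetic neuroblasts arise from the neural crest, whose own delamination uses SNAI and ZEB proteins, and NB cells are known to exist in a noradrenergic and a mesenchymal state, with PRRX1 among the factors of the latter. SIX4 is a homeodomain protein of muscle, placode and sensory ganglion development. GLIS3 is a Krüppel-like zinc finger protein known from pancreatic beta cells and thyroid.

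Levels are given below as raw reads or as counts per 1000000 reads (CPM), for which library totals were scaled with edgeR's trimmed mean of M values, and levels of different genes are compared as RPKM, in which CPM is divided by the length of the annotated exons in kilobases. Differences are log2 fold changes from edgeR's quasi-likelihood test fitted on all 8 libraries, with Benjamini-Hochberg adjusted p over the 16680 genes. A gene was called changed at an adjusted p under 0.05 together with a fold change of at least 1.5. Library totals ran from 7930765 to 15060744 reads, and both E15.5-mSGcm libraries were the shallowest, at 7930765 and 8937397 reads. Mitochondrial genes took 7.46% and 7.03% of the reads of those libraries and 4.65% to 6.22% in the other 6. The part of the mitochondrial share in the E15.5-mSGcm results was not tested. With every library thinned to 7930765 reads, 4 members were called in E15.5-mSGcm against control, as with all reads.

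Per length, the members covered a wide range of levels. TWIST1 was the highest, at a mean of 110.9 RPKM over the 8 libraries, above 98.4% of the 12375 protein-coding genes tested. ZEB1 came next at 43.0 RPKM, above 94.1% of those genes. SNAI1 at 10.6 RPKM, SIX4 at 6.10 RPKM, SNAI2 at 3.67 RPKM and ZEB2 at 3.38 RPKM formed a middle range. The value of ZEB2 is divided by 26151 bases of annotated exon, against 8650 for ZEB1, which lowers it. The neighbours SNAI2 and ZEB2 did not keep a fixed order: SNAI2 was below ZEB2 in the control libraries, at 2.33 and 2.39 RPKM against 3.29 and 3.12 RPKM, and above it in E15.5-mSGcm, at 4.80 and 5.29 RPKM against 3.20 and 3.01 RPKM. PRRX1 averaged 0.477 RPKM and GLIS3 0.0673 RPKM. TWIST2 had 0 of 98621913 reads, and 3 reads, the limit that a count of 0 allows, would be 0.199 to 0.378 CPM in a library. Intervals and limits from reads cover counting error only.

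**Figure D1:**
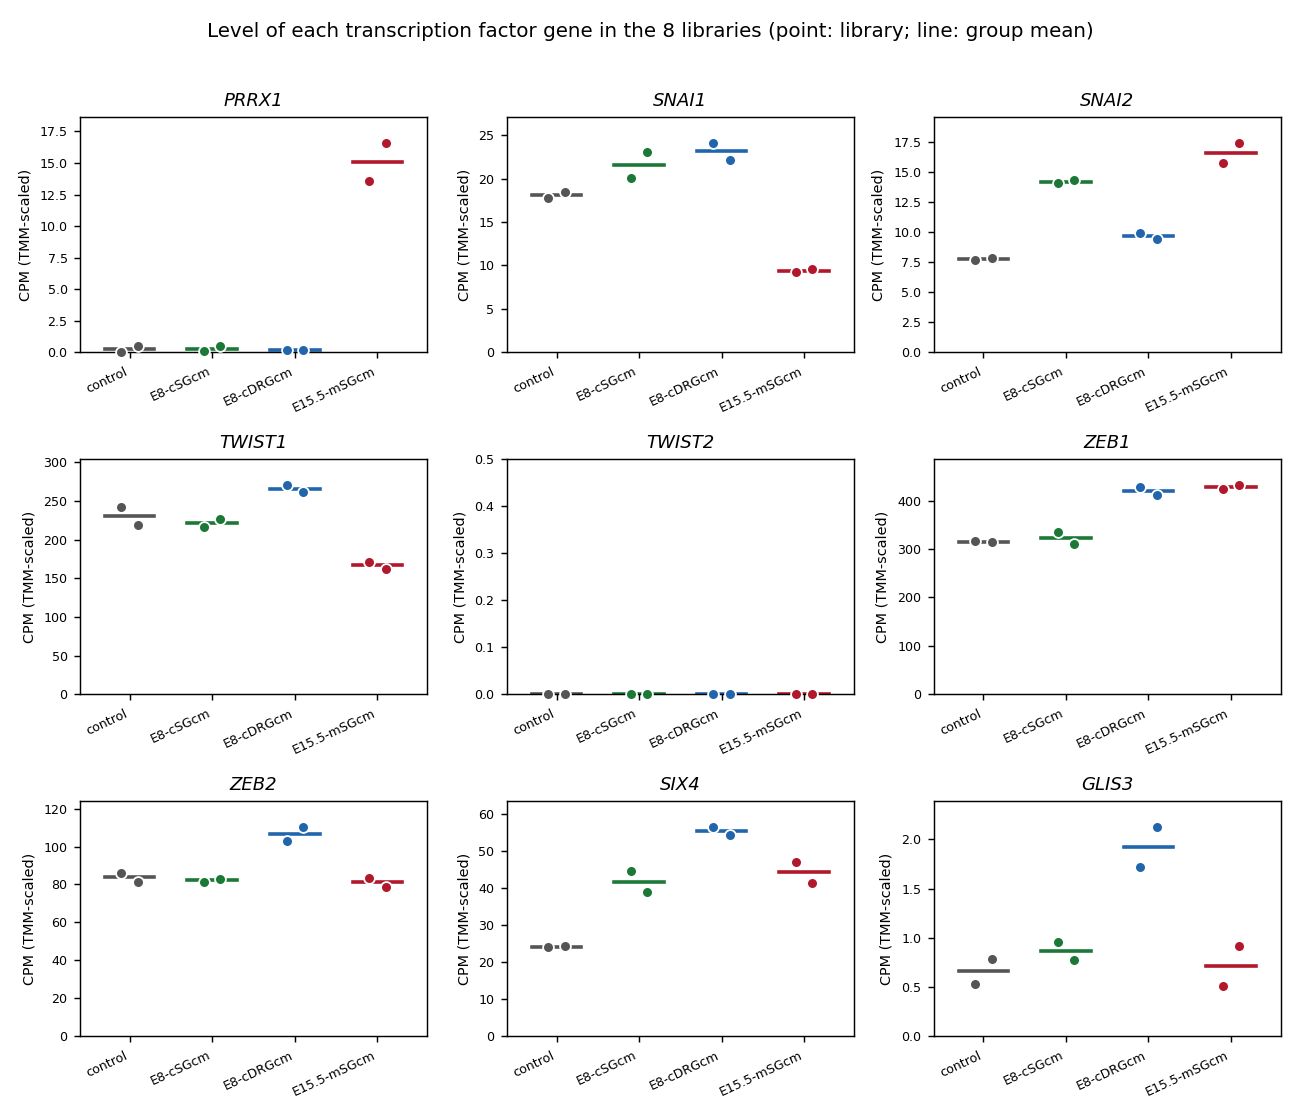
Level of each gene in CPM (linear axis from 0, a separate scale for each gene) in control medium, E8-cSGcm, E8-cDRGcm and E15.5-mSGcm, with a point for each of the 2 libraries of a group and a line at their mean. PRRX1 stands at 13.6 and 16.6 CPM in E15.5-mSGcm and below 0.5 CPM in the other 6 libraries, SNAI1 is lowest in E15.5-mSGcm, and TWIST2 is at 0 throughout.

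Each medium was compared with control medium, to ask whether factors released by the ganglia altered the RNA levels of these genes, and the 3 comparisons share the 2 control libraries. The column names of both controls carry E8, as those of the chick media do, so that E15.5-mSGcm has no control with its own label. In E8-cSGcm, 2 of the 8 tested members rose (SNAI2 and SIX4) and none fell, where 4.73% of all tested genes rose, 3.86% fell and 8.59% were called in either direction. In E8-cDRGcm, 2 of 8 rose (SIX4 and GLIS3) and none fell, where 9.81% of all genes rose, 10.9% fell and 20.7% were called. In E15.5-mSGcm, 3 of 8 rose (PRRX1, SNAI2 and SIX4) and 1 fell (SNAI1), where 6.65% of all genes rose, 7.27% fell and 13.9% were called. PRRX1 passed the count filter through E15.5-mSGcm, where it is high, so that its place among the 8 tested members rests on that group. With the 4 compared libraries alone, 7 members were fitted in each comparison with control, and PRRX1 was not among them in the chick media. SIX4 was the member called in all 3 media. SIX4 also belongs to a gene set that the study drew from these samples, so that its count is not independent evidence of its direction. The median log2 fold change of the 8 members was 0.26, 0.35 and 0.27 in E8-cSGcm, E8-cDRGcm and E15.5-mSGcm, against 0.010, 0.0055 and -0.015 over all tested genes. Their median absolute log2 fold change was 0.26, 0.38 and 0.67, against 0.22, 0.32 and 0.26 over all tested genes. In E8-cDRGcm both libraries lay above both control libraries for 7 of the 8 members, PRRX1 being the exception, where this held for 36.8% of all genes. In E8-cSGcm it held for 3 of 8, against 33.1% of all genes, and no member had both libraries below control, against 30.5%. In E15.5-mSGcm both libraries lay above both control libraries for 4 of 8, against 32.5% of all genes, and both lay below control for the other 2 non-overlapping members, SNAI1 and TWIST1, as for 35.8% of all genes. By the adjusted p alone, with no fold minimum, 2, 6 and 6 members passed in E8-cSGcm, E8-cDRGcm and E15.5-mSGcm, against 31.3%, 49.5% and 37.8% of all genes. Because the members were chosen with earlier results of these data known, these counts and medians only describe the set.

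**Figure D2:**
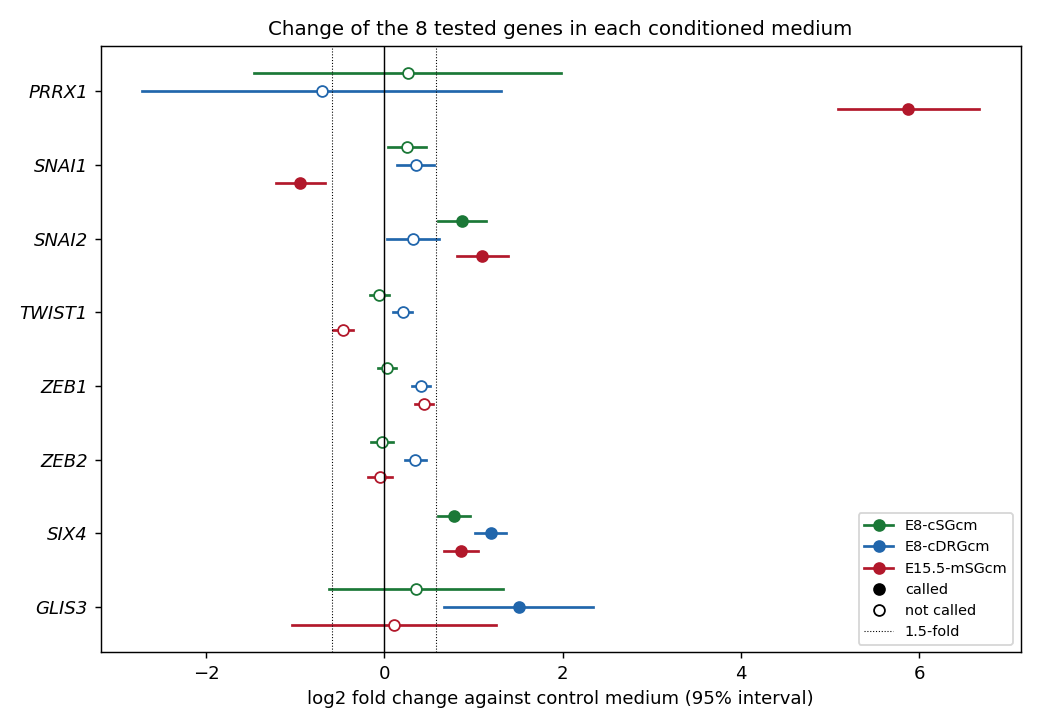
Log2 fold change of the 8 tested genes in each conditioned medium against control medium (horizontal axis), with 95% intervals from edgeR's quasi-likelihood fit. Filled points passed an adjusted p under 0.05 and 1.5-fold (dotted lines). PRRX1 in E15.5-mSGcm lies at 5.88, SNAI1 in E15.5-mSGcm is the filled point below 0, and SIX4 is filled in all 3 media.

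The paralogs SNAI1 (chr20:48599517-48605423, plus strand, GRCh37) and SNAI2 (chr8:49830157-49834299, minus strand), encoding Snail and Slug, moved in opposite directions in E15.5-mSGcm. SNAI1 stood at 17.7 and 18.4 CPM in control medium, 20.0 and 23.0 CPM in E8-cSGcm, 24.1 and 22.2 CPM in E8-cDRGcm, and 9.22 and 9.60 CPM in E15.5-mSGcm. Both E15.5-mSGcm libraries were thus below every other library, and the 4 chick libraries were above both controls. SNAI1 fell 1.92-fold in E15.5-mSGcm (log2 fold change -0.94, SE 0.137, 95% interval -1.22 to -0.66, adjusted p = 6.94e-07, edgeR). In a bulk sample, fewer cells of a type and less RNA per cell cannot be told apart. In E8-cDRGcm SNAI1 was 1.28-fold higher with an adjusted p of 0.00434 (edgeR), below the 1.5-fold minimum. In E8-cSGcm its log2 fold change was 0.26 (95% interval 0.04 to 0.47, adjusted p = 0.0594, edgeR). SNAI1P1, the processed pseudogene of SNAI1, can share reads with it, and held 15 and 14 reads in control, 5 and 1 in E8-cSGcm, 4 and 3 in E8-cDRGcm and 4 and 8 in E15.5-mSGcm, beside 72 to 329 reads of SNAI1.

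SNAI2 stood at 7.65 and 7.83 CPM in control medium, 14.0 and 14.3 CPM in E8-cSGcm, 9.87 and 9.45 CPM in E8-cDRGcm, and 15.8 and 17.4 CPM in E15.5-mSGcm. No conditioned-medium library overlapped the controls, and the media from sympathetic ganglia of either species gave the higher values. SNAI2 rose 1.83-fold in E8-cSGcm (log2 fold change 0.87, SE 0.134, adjusted p = 2.93e-06, edgeR) and 2.14-fold in E15.5-mSGcm (log2 fold change 1.10, SE 0.142, adjusted p = 7.15e-08, edgeR). In E8-cDRGcm its log2 fold change was 0.32 (95% interval 0.03 to 0.61, adjusted p = 0.0627, edgeR). The direct test between the chick media put SNAI2 1.47-fold lower in E8-cDRGcm than in E8-cSGcm (adjusted p = 0.00114, edgeR), below the fold minimum. E15.5-mSGcm exceeded E8-cDRGcm by 1.72-fold for SNAI2 (log2 difference 0.78, SE 0.138, adjusted p = 8.88e-06, edgeR) and was called. Between E15.5-mSGcm and E8-cSGcm the log2 difference was 0.23 (95% interval -0.03 to 0.49, adjusted p = 0.144, edgeR).

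The balance of the SNAI paralogs within a library needs no scaling between libraries. There were 2.32 and 2.35 SNAI1 reads per SNAI2 read in control medium and 2.44 and 2.35 in E8-cDRGcm. The ratio was 1.43 and 1.61 in E8-cSGcm. It was 0.585 and 0.553 in E15.5-mSGcm. Read ratios are compared between libraries and do not say which gene is higher. Divided by exon length, the ratio was 4.46 and 4.53 in control medium and 1.13 and 1.06 in E15.5-mSGcm. Per length SNAI1 was thus above SNAI2 in control medium and close to it in E15.5-mSGcm, where the difference was not tested.

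**Figure D3:**
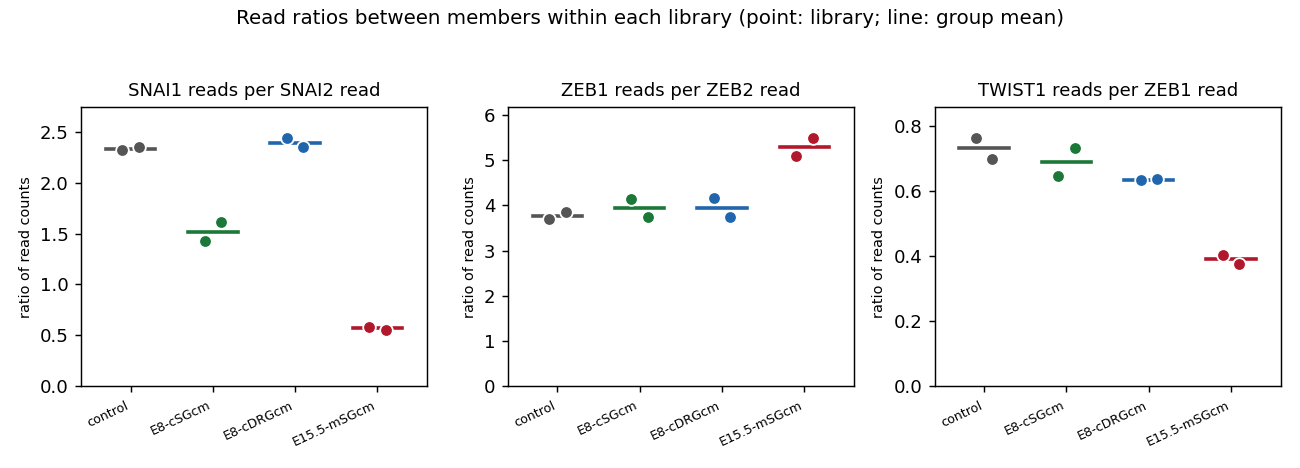
Ratio of raw reads between pairs of members within each library (linear axes from 0; points are libraries, lines group means) for SNAI1 over SNAI2, ZEB1 over ZEB2 and TWIST1 over ZEB1. E15.5-mSGcm has the lowest SNAI1 to SNAI2 ratio (0.585 and 0.553), the highest ZEB1 to ZEB2 ratio (5.08 and 5.49) and the lowest TWIST1 to ZEB1 ratio (0.404 and 0.377).

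TWIST1 (chr7:19060614-19157259, minus strand, GRCh37), a regulator of cranial neural crest mesenchyme, was abundant in all libraries. It stood at 242 and 219 CPM in control medium, 216 and 227 CPM in E8-cSGcm, 270.4 and 262 CPM in E8-cDRGcm, and 172 and 163 CPM in E15.5-mSGcm. The E8-cSGcm libraries overlapped control, both E8-cDRGcm libraries were above it and both E15.5-mSGcm libraries below it. TWIST1 was 1.38-fold lower in E15.5-mSGcm (log2 fold change -0.46, SE 0.0556, adjusted p = 1.43e-08, edgeR) and 1.15-fold higher in E8-cDRGcm (log2 fold change 0.21, SE 0.0523, adjusted p = 0.00115, edgeR), neither reaching 1.5-fold. In E8-cSGcm the log2 fold change was -0.054 (95% interval -0.16 to 0.05, adjusted p = 0.474, edgeR). Set directly against E8-cDRGcm, TWIST1 was 1.59-fold lower in E15.5-mSGcm (log2 difference -0.67, SE 0.0554, adjusted p = 5.49e-13, edgeR) and was called. After a correction for GC content and length, added after the data were seen, this difference was -0.56 and no longer reached 1.5-fold. An antisense transcript over TWIST1 held 1 to 8 reads per library. TWIST2 (chr2:239756673-239832230, plus strand), the dermal and bone paralog, was listed at 0 in each of the 8 libraries.

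ZEB1 (chr10:31607424-31818742, plus strand, GRCh37) was higher in both E8-cDRGcm and E15.5-mSGcm than in control medium, each time below 1.5-fold. It stood at 317 and 314 CPM in control medium, 336 and 311 CPM in E8-cSGcm, 428 and 411 CPM in E8-cDRGcm, and 425 and 432 CPM in E15.5-mSGcm. The E8-cSGcm libraries overlapped control, whereas the lowest of the other 4 treated libraries was above the highest control. ZEB1 was 1.33-fold higher in E8-cDRGcm (log2 fold change 0.41, SE 0.0488, adjusted p = 6.17e-09, edgeR) and 1.36-fold higher in E15.5-mSGcm (log2 fold change 0.44, SE 0.0496, adjusted p = 3.58e-09, edgeR). In E8-cSGcm its log2 fold change was 0.034 (95% interval -0.07 to 0.13, adjusted p = 0.651, edgeR). Between E15.5-mSGcm and E8-cDRGcm the log2 difference was 0.031 (95% interval -0.07 to 0.13, adjusted p = 0.622, edgeR).

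ZEB1-AS1 starts beside ZEB1 on the opposite strand with overlapping exons, and since the strand setting of the counting is not given in the sources used here, reads of the pair cannot be told apart where they overlap. ZEB1-AS1 held 93 and 103 reads in control, 129 and 157 in E8-cSGcm, 144 and 119 in E8-cDRGcm and 46 and 63 in E15.5-mSGcm, beside 3318 to 5717 reads of ZEB1. It rose in E8-cSGcm (log2 fold change 0.62, SE 0.156, adjusted p = 0.00195, edgeR), the medium in which ZEB1 was nearest to control. ZEB1-AS1 was also higher in E8-cDRGcm, as ZEB1 was, but below the fold minimum (log2 fold change 0.49, SE 0.158, adjusted p = 0.00962, edgeR). Its log2 difference of E8-cDRGcm from E8-cSGcm was -0.13 (adjusted p = 0.541, edgeR). The window of the RefSeq promoter table that holds the most CACCTG E-boxes of the 7 ZEB1 windows is shown because it carries the element to which ZEB and SNAI proteins bind. It lies at chr10:31318966-31319265, plus strand, GRCh38.p14, from 250 bases before to 50 after a ZEB1 start, and capitals mark CACCTG or its reverse complement CAGGTG.
ZEB1: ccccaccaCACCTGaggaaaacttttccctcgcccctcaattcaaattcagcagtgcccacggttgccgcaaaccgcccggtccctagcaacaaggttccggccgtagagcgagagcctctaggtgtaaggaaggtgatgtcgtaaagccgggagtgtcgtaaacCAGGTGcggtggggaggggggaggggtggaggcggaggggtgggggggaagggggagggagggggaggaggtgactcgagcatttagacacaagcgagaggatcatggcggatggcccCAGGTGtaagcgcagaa
The motif occurs 242 and 85 bases before the start and 33 bases after it. Of the 35116 promoter windows in the table, 20.6% hold CACCTG on either strand and 68.7% the broader CANNTG, which includes it. These shares count single windows, whereas the window shown was picked from 7 for its number of motifs, so that they are not its background. No binding was measured here.

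ZEB2 (chr2:145121931-145278624, minus strand, GRCh37), mutated in Mowat-Wilson syndrome and active in sympathetic neuroblasts, stood at 85.9 and 81.5 CPM in control medium, 81.2 and 83.0 CPM in E8-cSGcm, 103 and 110.2 CPM in E8-cDRGcm, and 83.7 and 78.7 CPM in E15.5-mSGcm. E8-cDRGcm alone did not overlap control. There ZEB2 was 1.27-fold higher (log2 fold change 0.35, SE 0.0599, adjusted p = 6.99e-06, edgeR), below the fold minimum. The log2 fold change was -0.026 (95% interval -0.15 to 0.10) in E8-cSGcm and -0.045 (95% interval -0.18 to 0.09) in E15.5-mSGcm. ZEB1 reads per ZEB2 read numbered 3.69 and 3.85 in control medium, 4.13 and 3.75 in E8-cSGcm, 4.15 and 3.73 in E8-cDRGcm, and 5.08 and 5.49 in E15.5-mSGcm. ZEB1 and ZEB2 therefore kept a similar balance in the chick media, with overlapping ratios, while the E15.5-mSGcm ratio was above all others. TWIST1 reads per ZEB1 read were likewise lowest in E15.5-mSGcm, at 0.404 and 0.377 against 0.632 to 0.762 in the other 6 libraries.

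PRRX1 (chr1:170631869-170708562, plus strand, GRCh37), a homeobox factor of limb and craniofacial mesenchyme, had the largest change of any member. It had 0 and 7 reads in control medium, 1 and 7 in E8-cSGcm, 2 and 2 in E8-cDRGcm, and 106 and 145 in E15.5-mSGcm. The last pair corresponded to 13.6 and 16.6 CPM, a mean of 15.1 ± 2.11 CPM (SD, n = 2), and the other 6 libraries were at most at 0.490 CPM. PRRX1 rose in E15.5-mSGcm against control (log2 fold change 5.88, SE 0.387, adjusted p = 9.07e-14, edgeR). Pooling the libraries, 251 reads against 7 gave a ratio of 59.5 (exact 95% counting interval 28.5 to 149.5). Against control replicate 1 alone, which had no read and a limit of 3 reads, the E15.5-mSGcm mean was at least 64.9-fold higher. That figure leaves out the 7 reads of control replicate 2 and does not bound the change against control medium. The control level rests on replicate 2: without control replicate 2 the log2 fold change was 10.49, and without control replicate 1 it was 5.00. PRRX1 was also higher in E15.5-mSGcm than in E8-cSGcm (log2 difference 5.61, SE 0.380, adjusted p = 8.95e-14, edgeR) and E8-cDRGcm (log2 difference 6.58, SE 0.427, adjusted p = 1.79e-14, edgeR). In the chick media its log2 fold change against control was 0.26 (95% interval -1.46 to 1.99) and -0.70 (95% interval -2.71 to 1.31), which the few reads leave wide.

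A long noncoding RNA that overlaps the PRRX1 locus outside its exons on the same strand, ENSG00000271811, held 4 and 5 reads in E15.5-mSGcm and none elsewhere. Markers of fibroblasts moved in that medium too: of 8 tested, 4 rose and 2 fell, where 6.65% of all tested genes rose and 7.27% fell. PDGFRA had 67 and 97 reads in E15.5-mSGcm against 8 to 16 in the other libraries (log2 fold change 3.65, SE 0.298, adjusted p = 1.40e-12, edgeR). DCN, a collagen-binding proteoglycan, and COL1A2 rose by 2.30 and 2.01 on the log2 scale, whereas COL1A1 fell by 1.82. The summed level of the 9 fibroblast markers was 563 to 567 CPM in E15.5-mSGcm, 551 to 555 CPM in control, 566 to 572 CPM in E8-cSGcm and 542 to 569 CPM in E8-cDRGcm, and FAP was at 0 in every library. In control PDGFRB gave 259 and 254 CPM of that sum and PDGFRA 1.07 and 0.526 CPM. Falls of THY1 (-0.65) and COL1A1 in E15.5-mSGcm offset rises of others, so that the sum does not show the changes of single markers. The part of cells other than NB cells in the PRRX1 result was not tested.

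The PRRX1 promoter window of the RefSeq table is shown because PRRX1 went from near absence to a clear level, with CCAAT, the element bound by NF-Y, in capitals. It lies at chr1:170663881-170664180, plus strand, GRCh38.p14.
PRRX1: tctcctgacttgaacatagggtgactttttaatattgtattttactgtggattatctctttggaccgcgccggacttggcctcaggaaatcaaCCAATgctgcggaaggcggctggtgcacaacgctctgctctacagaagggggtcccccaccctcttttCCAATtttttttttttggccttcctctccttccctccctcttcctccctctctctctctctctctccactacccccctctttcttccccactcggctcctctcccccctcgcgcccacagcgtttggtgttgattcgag
CCAAT begins 157 and 89 bases before the start. The window held no CANNTG and no TGANTCA, a sequence bound by AP-1, and of all 35116 windows 34.6% hold CCAAT on either strand and 7.71% TGANTCA.

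SIX4 (chr14:61176257-61191069, minus strand, GRCh37) rose in each of the 3 media. It stood at 24.1 and 24.2 CPM in control medium, 44.6 and 38.8 CPM in E8-cSGcm, 56.3 and 54.3 CPM in E8-cDRGcm, and 47.0 and 41.2 CPM in E15.5-mSGcm. All 6 treated libraries were above both controls, E8-cDRGcm was highest, and the SG media overlapped each other. SIX4 rose 1.72-fold in E8-cSGcm (log2 fold change 0.78, SE 0.0881, adjusted p = 6.03e-09, edgeR), 2.29-fold in E8-cDRGcm (log2 fold change 1.20, SE 0.0849, adjusted p = 1.41e-14, edgeR) and 1.82-fold in E15.5-mSGcm (log2 fold change 0.87, SE 0.0939, adjusted p = 1.55e-09, edgeR). E8-cDRGcm exceeded E8-cSGcm by 1.33-fold (adjusted p = 9.82e-05, edgeR) and E15.5-mSGcm by 1.26-fold (adjusted p = 0.00122, edgeR), both below the fold minimum. Between the SG media the log2 difference, E15.5-mSGcm less E8-cSGcm, was 0.082 (95% interval -0.10 to 0.26, adjusted p = 0.460, edgeR). Over 18 alternative settings the log2 fold change in E8-cDRGcm stayed between 1.13 and 1.22.

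The SIX4 promoter window is shown as that of the member called in every medium, again with CCAAT in capitals, at chr14:60724302-60724601, minus strand, GRCh38.p14.
SIX4: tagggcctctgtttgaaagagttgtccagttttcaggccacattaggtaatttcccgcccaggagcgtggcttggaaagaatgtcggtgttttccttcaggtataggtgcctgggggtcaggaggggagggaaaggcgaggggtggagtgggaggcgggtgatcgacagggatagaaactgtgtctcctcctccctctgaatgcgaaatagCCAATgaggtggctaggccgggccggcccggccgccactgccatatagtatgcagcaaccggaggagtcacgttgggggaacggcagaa
CCAAT begins 39 bases before the start, and the window held neither CANNTG nor TGANTCA. Windows were matched for 6 of the 9 members, 13 windows in all, and SNAI1, SNAI2 and TWIST1 were not matched.

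GLIS3 (chr9:3824127-4348392, minus strand, GRCh37) was near the detection limit and rose in E8-cDRGcm. It had 7 and 12 reads in control medium, 12 and 11 in E8-cSGcm, 23 and 29 in E8-cDRGcm, and 4 and 8 in E15.5-mSGcm. Both E8-cDRGcm libraries were above all others, at 1.72 and 2.12 CPM against at most 0.962 CPM. The rise against control was 2.84-fold (log2 fold change 1.51, SE 0.412, 95% interval 0.67 to 2.34, adjusted p = 0.00249, edgeR), and the pooled ratio, 52 reads against 19, was 2.79 (exact 95% counting interval 1.62 to 4.99). The call was lost in DESeq2 (adjusted p = 0.0694) and after thinning (log2 fold change 0.96, adjusted p = 0.190, edgeR). In the direct comparisons GLIS3 was higher in E8-cDRGcm than in E8-cSGcm (log2 difference 1.15, SE 0.398, adjusted p = 0.0251, edgeR), a call lost when any of those 4 libraries was left out (adjusted p 0.0515 to 0.174). It was lower in E15.5-mSGcm than in E8-cDRGcm (log2 difference -1.40, SE 0.468, adjusted p = 0.0114, edgeR), a call lost without E8-cDRGcm replicate 2 (adjusted p = 0.0767) or E15.5-mSGcm replicate 1 (adjusted p = 0.124). The log2 fold change against control was 0.36 (95% interval -0.62 to 1.34) in E8-cSGcm and 0.11 (95% interval -1.04 to 1.25) in E15.5-mSGcm.

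The media were also compared directly. Species goes with embryonic stage, E8 in chick and E15.5 in mouse, so that these cannot be told apart. The E15.5-mSGcm libraries were also the shallowest, and E15.5-mSGcm and E8-cDRGcm differ in ganglion type as well. Between the chick media, 1 of 8 members was called (GLIS3, higher in E8-cDRGcm), where 7.49% of all genes were, 2.62% higher and 4.87% lower. By the adjusted p alone 6 members passed, against 30.2% of all genes. TWIST1, ZEB1, ZEB2 and SIX4 were 1.20-fold to 1.33-fold higher in E8-cDRGcm than in E8-cSGcm and SNAI2 was lower. Between E15.5-mSGcm and E8-cSGcm, the sympathetic media of the 2 species, 2 of 8 members were called (PRRX1 higher, SNAI1 lower), against 22.3% of all genes, 10.2% higher and 12.1% lower; 4 passed the adjusted p alone, against 49.8% of all genes. Between E15.5-mSGcm and E8-cDRGcm, 5 of 8 were called, with PRRX1 and SNAI2 higher and SNAI1, TWIST1 and GLIS3 lower, against 26.2% of all genes, with 13.1% in each direction; 7 passed the adjusted p alone, against 52.6%. SNAI1 was 2.29-fold lower in E15.5-mSGcm than in E8-cSGcm (log2 difference -1.20, SE 0.134, adjusted p = 1.59e-09, edgeR) and 2.45-fold lower than in E8-cDRGcm (log2 difference -1.30, SE 0.132, adjusted p = 1.21e-10, edgeR).

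Genes of the pathway around the members were taken from lists that, like the members, were chosen with earlier results of these data known. Of all tested genes, 8.59%, 20.7% and 13.9% were called in E8-cSGcm, E8-cDRGcm and E15.5-mSGcm against control, and each list count below is to be read beside these shares. Of 12 paralogs of the members, 7 could be tested, with 1 up in E8-cSGcm, 2 up and 1 down in E8-cDRGcm, and 1 down in E15.5-mSGcm. GLI1, a Hedgehog target and relative of GLIS3, rose in E8-cSGcm and E8-cDRGcm by 1.63 and 2.06 on the log2 scale (adjusted p = 2.40e-06 and 2.25e-09, edgeR). GLI2, the main Hedgehog activator, fell in E8-cDRGcm, from 18 and 29 reads in control to 9 and 11 (log2 fold change -1.15, SE 0.411, adjusted p = 0.0190, edgeR). It had 2 and 3 reads in E15.5-mSGcm, a pooled ratio against control of 0.177 (exact 95% counting interval 0.0548 to 0.442). PRRX2, the paralog of PRRX1, was at 47.1 and 42.8 CPM in control and 32.8 and 32.1 CPM in E15.5-mSGcm, a difference below the fold minimum (log2 fold change -0.47, SE 0.0866, adjusted p = 3.91e-05, edgeR), so the PRRX paralogs did not share a direction there. SNAI3 had no reads.

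Of 21 other mesenchymal and neural crest transcription factors, 8 were tested, and TFAP2B was the 1 that fell in each chick medium. TFAP2B, active in sympathetic neuroblasts, fell by 0.67 in E8-cSGcm and by 1.02 in E8-cDRGcm on the log2 scale and was higher by 0.55 in E15.5-mSGcm, below 1.5-fold. In E15.5-mSGcm 2 rose and 1 fell. SOX9, a factor of crest and cartilage, rose from 33.7 and 40.1 CPM in control to 82.5 and 88.5 CPM (log2 fold change 1.21, SE 0.0810, adjusted p = 6.49e-15, edgeR). TCF12, an E-protein partner of TWIST1, rose by 0.66 and FOXC1, a forkhead factor of mesenchyme, fell by 0.99. Of 33 partners and stability regulators 30 were tested, with 2 up in E8-cSGcm, 3 up and 1 down in E8-cDRGcm and 3 up in E15.5-mSGcm. LOXL2, which stabilises Snail, rose by 1.23 in E8-cDRGcm and 2.02 in E15.5-mSGcm on the log2 scale. It did so on few reads, 6 and 9 in control, 15 and 19 in E8-cDRGcm and 18 and 18 in E15.5-mSGcm. AJUBA, a Snail corepressor partner, rose by 1.02 in E8-cSGcm and 1.19 in E8-cDRGcm. ID1 rose by 0.68 in E8-cSGcm and 0.87 in E8-cDRGcm, and ID2, which like ID1 sequesters E-proteins, fell by 0.63 in E8-cDRGcm and rose by 0.91 in E15.5-mSGcm. The medians of the partner list were -0.055, 0.0040 and 0.035, against the medians of all genes given above.

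Of 24 epithelial genes, the classical targets of repression, 8 passed the filter on low counts, and EPCAM, ESRP1 and GRHL2 were among those that did not. In E8-cSGcm 2 of the 8 rose, in E8-cDRGcm 2 rose, and in E15.5-mSGcm 1 rose and 2 fell. Among all tested genes the called shares were 8.59%, 20.7% and 13.9%. KRT18, a simple-epithelium keratin, rose by 0.93 in E8-cSGcm and 1.76 in E8-cDRGcm on the log2 scale. Like SIX4, KRT18 belongs to a gene set that the study drew from these samples, so that its rise is not independent evidence of its direction. KRT8, its partner keratin, rose by 0.82 in E8-cSGcm and fell by 1.54 in E15.5-mSGcm, with 28 and 22 reads in control, 32 and 52 in E8-cSGcm and 5 and 5 in E15.5-mSGcm. CDH1, encoding E-cadherin, had 13 and 7 reads in control and 0 and 1 in E15.5-mSGcm, a pooled ratio of 0.0830 (exact 95% counting interval 0.0020 to 0.519). The gene that rose in E15.5-mSGcm was CGN, from 15.6 and 13.7 CPM in control to 26.4 and 28.7 CPM (log2 fold change 0.91, SE 0.118, adjusted p = 6.67e-08, edgeR). CGN had 204 and 209 reads in control, so that it was better measured than KRT8 and CDH1, which fell. The medians of the 8 were 0.74, 0.39 and -0.037 in E8-cSGcm, E8-cDRGcm and E15.5-mSGcm.

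Of 27 mesenchymal genes 25 were tested, 3 of them (COL1A1, COL1A2 and COL3A1) also fibroblast markers: 5 rose and 3 fell in E8-cSGcm, 5 rose and 3 fell in E8-cDRGcm, and 5 rose and 5 fell in E15.5-mSGcm, with medians of 0.32, 0.13 and 0.040. Over all tested genes 8.59%, 20.7% and 13.9% were called in these media. TNC, a matrix glycoprotein of migrating crest, stood at 50.7 and 47.5 CPM in control, 22.1 and 17.8 CPM in E8-cSGcm, 12.9 and 10.99 CPM in E8-cDRGcm, and 149 and 169 CPM in E15.5-mSGcm. It fell in both chick media (log2 fold changes -1.30 and -2.04) and rose in E15.5-mSGcm (1.70, SE 0.0766, adjusted p = 5.36e-19, edgeR). S100A4, a calcium-binding protein of motile cells, did the same, at -0.63, -1.70 and 1.29. ITGA5, a fibronectin receptor subunit, rose by 1.00 and 1.72 on the log2 scale in the chick media and was at -0.041 in E15.5-mSGcm. ACTA2, smooth muscle actin, rose by 1.67 in E8-cSGcm and 1.43 in E8-cDRGcm, from 15 and 23 reads in control to 57 and 58 and to 40 and 58.

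**Figure D4:**
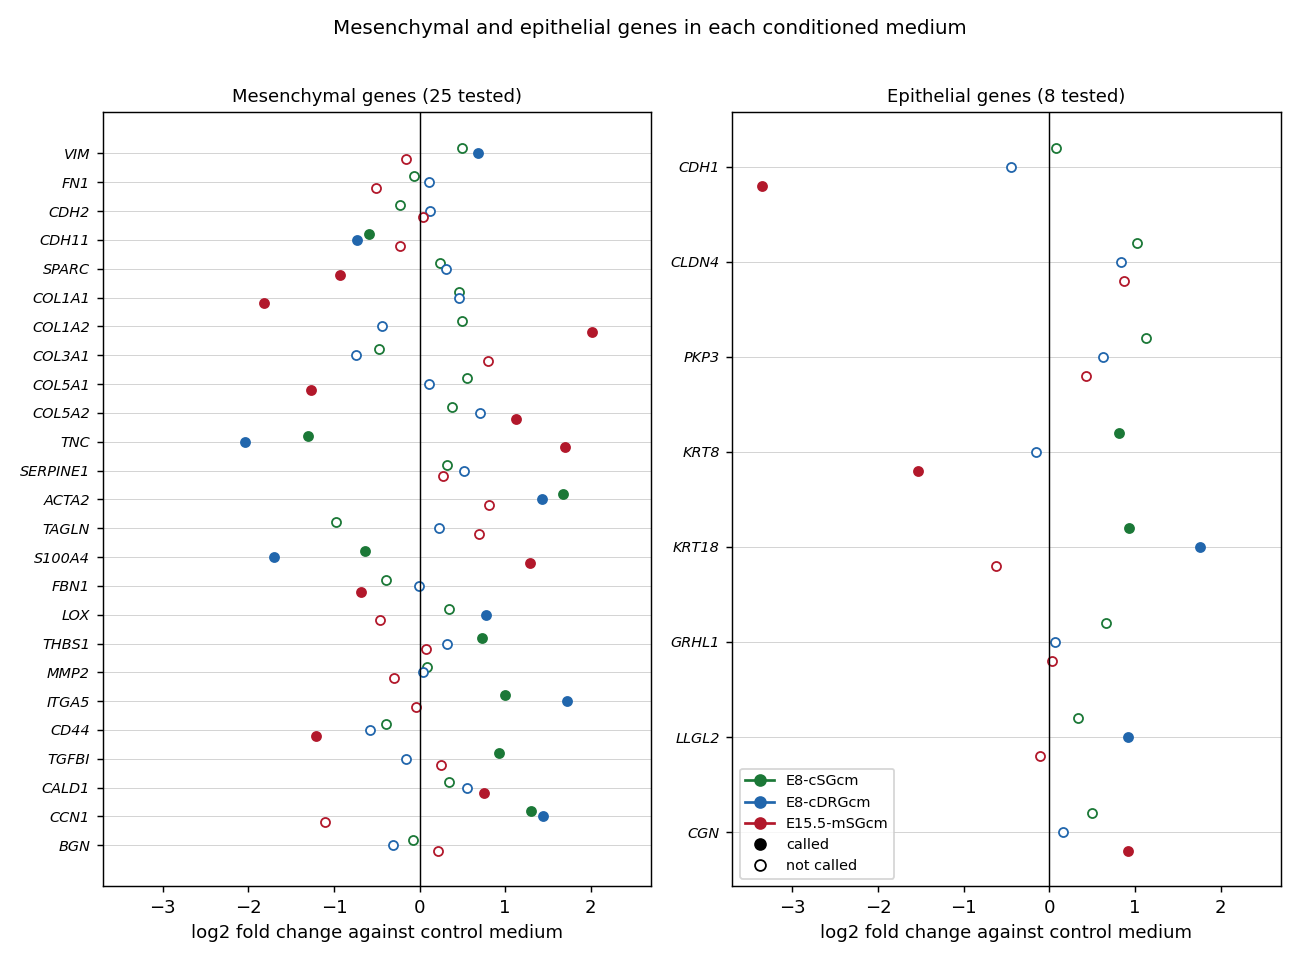
Log2 fold change against control medium of the 25 tested mesenchymal genes (left) and the 8 tested epithelial genes (right) in the 3 media; filled points were called. TNC and S100A4 lie below 0 in both chick media and above 0 in E15.5-mSGcm, and CDH1 in E15.5-mSGcm, at -3.35, rests on 1 read.

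Antisense and microRNA host genes, of which 7 of 9 were matched and 3 tested, included DNM3OS, the host of a microRNA cluster regulated by TWIST1, which fell by 0.62 in E8-cSGcm and 0.96 in E8-cDRGcm on the log2 scale. In E15.5-mSGcm its log2 fold change was -0.58 (SE 0.108, adjusted p = 4.93e-05, edgeR), just below the fold minimum. SNAI1P1 fell in both chick media, by 2.14 and 1.95, on few reads. Noradrenergic NB markers, all 10 of which were tested, summed to 2279 and 2280 CPM in control, 1493 to 1590 CPM in E8-cSGcm, 1346 to 1362 CPM in E8-cDRGcm and 1578 to 1623 CPM in E15.5-mSGcm. Among them 4, 7 and 5 fell in the 3 media and none rose, where 3.86%, 10.9% and 7.27% of all tested genes fell. GATA2 weighs heavily in the sums, at 749 and 770 CPM in control, 290 and 298 CPM in E8-cSGcm and 182 and 179 CPM in E8-cDRGcm. HAND2, at 741 and 711 CPM in control, had log2 fold changes of -0.042 and 0.011 in the chick media. DBH was higher by 0.47 in E15.5-mSGcm, below 1.5-fold, so that the sums do not show the changes of single markers. Glial markers summed to 1.12 to 4.10 CPM over all libraries, with SOX10, FOXD3 and FABP7 among those at 0. ERBB3, a neuregulin receptor of that list, rose by 1.76 in E8-cDRGcm and 1.72 in E15.5-mSGcm, from 12 and 9 reads in control to 26 and 43 and to 16 and 25. None of the 5 endothelial and 5 macrophage markers matched passed the filter, with sums of at most 1.61 and 1.79 CPM.

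For each member called in a medium, the 3 tested genes with the smallest root mean square difference of centred log2 CPM over the 8 libraries were listed, as a description. For PRRX1 these were TLR7 (0.132), CXCL12 (0.461) and RANBP3L (0.482). TLR7, an endosomal RNA receptor, had 93 and 138 reads in E15.5-mSGcm and 0 to 6 elsewhere. CXCL12, the chemokine of the CXCR4 receptor, had 111 and 123 reads there and 0 to 10 elsewhere. For SNAI1 the nearest genes were H2AX (0.0490), PRPF40B (0.0773) and TBC1D1 (0.0867). For SNAI2 they were MTSS1 (0.141), ANKRD17-DT (0.141) and CGN (0.149), the last encoding cingulin of epithelial tight junctions. For SIX4 they were SMIM29 (0.0858), GCNT4 (0.0909) and NYAP1 (0.112), and for GLIS3 TBX19 (0.117), MAP1LC3B2 (0.135) and GCLM (0.148).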

How the data were processed

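Raw read counts per gene for 8 libraries were analysed as the authors deposited them, as whole numbers without normalization. Per the labels and the study's methods, 50 ng of RNA per sample went into a strand-specific kit for total RNA, followed by single-read sequencing. The submitters' processing notes name bcl2fastq 2.17.1.14, cutadapt 1.9.1, TopHat2 2.1.0 and HTSeq 0.11.3. They name hg38 and GRCh38 as the genome build, whereas the study's methods name hg19. The annotation release and the strand setting are not given in the sources used here. Identifiers were matched to GENCODE 44 lifted to GRCh37 (58611 of 60676), which gave positions and exon lengths. Promoter sequences and their coordinates came from RefSeq on GRCh38.p14.

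Libraries were assigned by the column names quoted in the sample descriptions. Genes were filtered with filterByExpr and tested with edgeR 4.0.16 in R 4.3.3 (trimmed mean of M values, 1 model of all 8 libraries, group as the term). The study's own choice of DESeq2 (version 1.42.0 here) was an alternative. Other alternatives were the scaling (RLE or upper quartile), 2 other count filters (1 read in total, or 10 reads in every library), the 4 compared libraries alone, the adjusted p alone, a replicate block, thinning to the smallest library, leaving out each library, and, added after seeing the data, a correction for GC content and length by splines with 5 degrees of freedom. SEs are derived from the F statistic. The scripts were tested on simulated counts. Library totals of 7930765 to 15060744 reads set the precision. No pair of replicate libraries was a duplicate: the chi-square per gene was 1.77 to 3.78.

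The members and the gene lists were chosen with earlier results of these data known. Named genes were all 9 members and up to 4 called genes of each list (those called in the most media, then by size). The 3 genes most like each called member were named too. PRRX2, SNAI3, EPCAM, ESRP1, GRHL2, FAP, HAND2, DBH and the glial markers at 0 were named after their values were seen. p-values are two-sided. Some list genes are not reported here.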

Additional observations from a re-analysis of the deposited data

Results flagged for a closer look

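For 2 members the response to a medium differed from the response to another medium by the test of the difference itself, with estimates of opposite sign against control. SNAI1 was below control in E15.5-mSGcm and above it in the chick media, and the differences were -1.20 (SE 0.134, adjusted p = 1.59e-09, edgeR) on the log2 scale against E8-cSGcm and -1.30 (SE 0.132, adjusted p = 1.21e-10, edgeR) against E8-cDRGcm. SNAI1 was not called against control in either chick medium. Its log2 fold change was 0.26 in E8-cSGcm (adjusted p = 0.0594, edgeR) and 0.35 in E8-cDRGcm (adjusted p = 0.00434, edgeR), both below the fold minimum. PRRX1 was above control in E15.5-mSGcm and had 2 and 2 reads in E8-cDRGcm, and the difference was 6.58 (SE 0.427, adjusted p = 1.79e-14, edgeR). The estimate of PRRX1 in E8-cDRGcm against control, -0.70, has a 95% interval of -2.71 to 1.31 that spans 0.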

How the results depend on the processing

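Of 48 log2 fold changes (8 members in 6 comparisons), 43 stayed on their side of the threshold under every alternative other than the adjusted p alone, 37 never changed sign and 33 met both conditions. Members called in E8-cDRGcm against control numbered 1 in place of 2 in DESeq2, with at least 10 counts in every library and after thinning. Between E8-cDRGcm and E8-cSGcm they numbered 0 under those alternatives, DESeq2 giving GLIS3 no adjusted p, and 0 to 1 with a library left out. With at least 10 counts in every library, 1 in place of 2 was called between E15.5-mSGcm and E8-cSGcm and 3 in place of 5 between E15.5-mSGcm and E8-cDRGcm, since PRRX1 and GLIS3 are then not tested. By the adjusted p alone, 6, 6 and 4 members passed in E8-cDRGcm against control, E8-cDRGcm against E8-cSGcm and E15.5-mSGcm against E8-cSGcm. Signs changed after thinning for PRRX1 in E8-cDRGcm (4.10) and GLIS3 in E15.5-mSGcm (-0.063) against control and for ZEB2 between E15.5-mSGcm and E8-cSGcm (0.022, and 0.00056 with RLE). Signs also changed with the GC content and length correction for SIX4 between E15.5-mSGcm and E8-cSGcm (-0.0024, with the block -0.0021) and ZEB1 between E15.5-mSGcm and E8-cDRGcm (-0.0682, with the block -0.0678, and -0.028 with the filter at 1 count). The cause was not tested. With a library left out, the log2 fold change in E8-cSGcm against control ranged from -1.51 to 4.88 for PRRX1, -0.12 to 0.019 for TWIST1, -0.017 to 0.089 for ZEB1 and -0.065 to 0.014 for ZEB2. Against control it ranged from -1.57 to 3.92 for PRRX1 in E8-cDRGcm and from -0.39 to 0.44 for GLIS3 in E15.5-mSGcm. Between media it ranged from -1.66 to 0.81 for PRRX1 (E8-cDRGcm against E8-cSGcm), -0.069 to 0.018 for ZEB2, -0.027 to 0.17 for SIX4 and -0.75 to 0.078 for GLIS3 (E15.5-mSGcm against E8-cSGcm), and -0.0068 to 0.068 for ZEB1 (E15.5-mSGcm against E8-cDRGcm). GLIS3 in E15.5-mSGcm against E8-cDRGcm was not called in DESeq2 (adjusted p = 0.112) or after thinning (adjusted p = 0.155, edgeR). PRRX1 passed in E8-cSGcm against control after thinning (4.61, adjusted p = 0.0392, edgeR), where thinning left control without a read. Over all genes, DESeq2 called 449 up and 390 down in E8-cSGcm against control, where edgeR called 789 and 644, and 205 and 485 between E8-cDRGcm and E8-cSGcm, where edgeR called 437 and 812; the adjusted p alone passed 5213, 8261, 6305, 5037, 8304 and 8767 genes in the 6 comparisons, against 1433, 3460, 2322, 1249, 3727 and 4368. Replicate numbers did not pair the libraries: correlations of same-numbered deviations ran from -0.060 to 0.042, and with the replicate block 2, 2 and 4 members were called against control and 1, 2 and 5 between media, the same numbers as without it. Depth limits PRRX1 in the chick media, GLIS3 and TWIST2.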
